A study of Mus musculus with 3 samples.

Results

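Endothelial cells line the inside of blood and lymphatic vessels, and those described here are the ones that carried almost no message for P-selectin (Selp) or E-selectin (Sele), the adhesion receptors that venular endothelium uses to catch leukocytes. They were chosen from single-cell RNA counts of mouse flexor digitorum longus (FDL) tendon. A cell counted as endothelial where Pecam1, Cdh5 and Cldn5, genes of endothelial junctions, gave at least 4 unique molecular identifiers (UMIs, counted RNA molecules) together. It also had at most 5 UMIs of the mural cell genes Rgs5, Myh11 and Tagln, at most 3 of the macrophage genes C1qa, C1qb and C1qc, and fewer than 10 of the tenocyte genes Tnmd, Fmod, Kera and Cilp2. An endothelial cell was a member where Selp and Sele gave at most 1 UMI. This rule found 254 members among 303 endothelial cells and 19709 cells that passed the quality filter of 1000 to 5000 genes and at most 10% mitochondrial UMIs.

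Vessel beds differ in what they express. Capillary endothelium of tissues that burn fat takes up fatty acids with Cd36, carries them inside the cell with Fabp4 and Fabp5, and holds lipoprotein lipase on its surface with Gpihbp1. Arterial endothelium uses the gap junction proteins Gja5 and Gja4 and Notch signalling, and lymphatic endothelium depends on the transcription factor Prox1. Kdr encodes the main receptor for vascular endothelial growth factor, and was measured here across these beds.

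There were 3 libraries, 1 for each group, each made from 16 pooled FDL tendons of mice of both sexes. The 6 M WT library came from Scx-Cre-; DTR F/+ mice and the 6 M DTR library from Scx-Cre+; DTR F/+ mice. Both groups were given 5 injections of diphtheria toxin in the hind paws at 3 months and, by the study's methods, were harvested at 6 months, while the deposited labels give 3 months for both libraries. They are named by the former. Scx-Cre acts from early tendon development onwards, so the toxin receptor was present in every cell with a history of Scx expression. The 21 M B6 library came from untreated C57BL/6J mice of 21 months, which carry neither allele, so age, genotype, injection and library cannot be told apart in any comparison with it. Tendons were digested for 120 min in 6 M WT and for 90 min in 6 M DTR and 21 M B6. Digestion time therefore cannot be told apart from group in either comparison with 6 M WT. With 1 library per group no difference between groups could be tested, and every interval below covers counting error only. The libraries are called WT, DTR and B6 from here on, and sets of 3 values follow that order.

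The members numbered 105 in WT, 81 in DTR and 68 in B6. They were 1.26% of filtered cells in WT (95% Clopper-Pearson interval, 1.03 to 1.52), 1.24% in DTR (0.983 to 1.53) and 1.42% in B6 (1.10 to 1.79), and the 3 intervals overlapped. These shares depend on the mural limit. At least 4 UMIs of Pecam1, Cdh5 and Cldn5 were held by 210, 194 and 229 filtered cells, of which 66, 72 and 158 were over that limit. All filtered cells that failed the endothelial rule, these included, are called non-endothelial below. Of all endothelial cells, members made up 82.7% in WT, 77.1% in DTR and 95.8% in B6. Only 3 endothelial cells of B6 were on the other side of the selectin limit, against 22 in WT and 24 in DTR. The cells over the mural limit, most numerous in B6, were not sorted by selectin UMIs, so these counts and shares do not cover them. Median depth per member was 7302, 6900 and 8267 UMIs in that order, below the 13008, 12328 and 12914 of all filtered cells. The median mitochondrial share was 4.31%, 3.88% and 6.98%, and so was highest in B6. Among members whose sex could be called from Xist and Y-linked genes, 70.5% were female in WT, 35.5% in DTR and 54.0% in B6. No member barcode was shared between libraries, and of filtered barcodes 13 to 15 were shared by each pair.

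The values that chose the members were the marker sums, and they are given here as a description. The median sum of Pecam1, Cdh5 and Cldn5 was 22 UMIs in WT, 18 in DTR and 16 in B6. At exactly 4 UMIs, just inside the limit, there were 7, 11 and 7 members, and just outside it, at 3 UMIs, 16, 14 and 9 cells met the rest of the rule. At the selectin limit, 2, 3 and 1 members held a single Selp or Sele UMI, and 1, 5 and 0 endothelial cells held 2 such UMIs.

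The endothelial label held for most members and not for all. Every member of WT had a Cdh5 or Cldn5 UMI, but 7 members of DTR and 10 of B6 were admitted on Pecam1 alone, with 4 to 8 and 4 to 9 Pecam1 UMIs. In those 10 cells of B6, no UMI of Cdh5, Cldn5, Fabp4, Kdr, Flt1, Egfl7 or Emcn was counted, although their median depth was 22717 UMIs against 7844 in the other 58 members. They carried instead Prg4, which encodes the joint lubricant lubricin, at 30680 CPM, the count scaled to the summed UMIs of the cells, in 10 of 10 cells, while the other 58 members had 194 CPM. Decorin (Dcn) was at 4259 CPM in these 10 cells and at 879 CPM in the other members, and the fibroblast receptor Pdgfra was present in 9 of 10 and in 6 of 58. A single cell held 3285 of the Prg4 UMIs of these 10 cells. The 7 such cells of DTR had 5641 CPM of Prg4, which was found in 5 of them and had 350 UMIs in 1 cell, and 6776 CPM of Dcn. Non-endothelial cells had 7393 CPM of Prg4 in DTR and 5903 CPM in B6. In the 7 cells of DTR, Fabp4 and Kdr were each found in 1, and a Flt1 or Egfl7 UMI was seen in 1 of them each. Of the 3 genes of the rule these 17 cells thus had only Pecam1, at 394 CPM in DTR and 241 CPM in B6. They supplied 12.2% of all member UMIs in DTR and 29.3% in B6, so the lists and the genes that turn on these cells are given, by a choice made after these values were seen, for all members and for the 105, 74 and 58 members with a Cdh5 or Cldn5 UMI, called junction-positive members here. In WT both sets are the same cells.

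**Figure D1:**
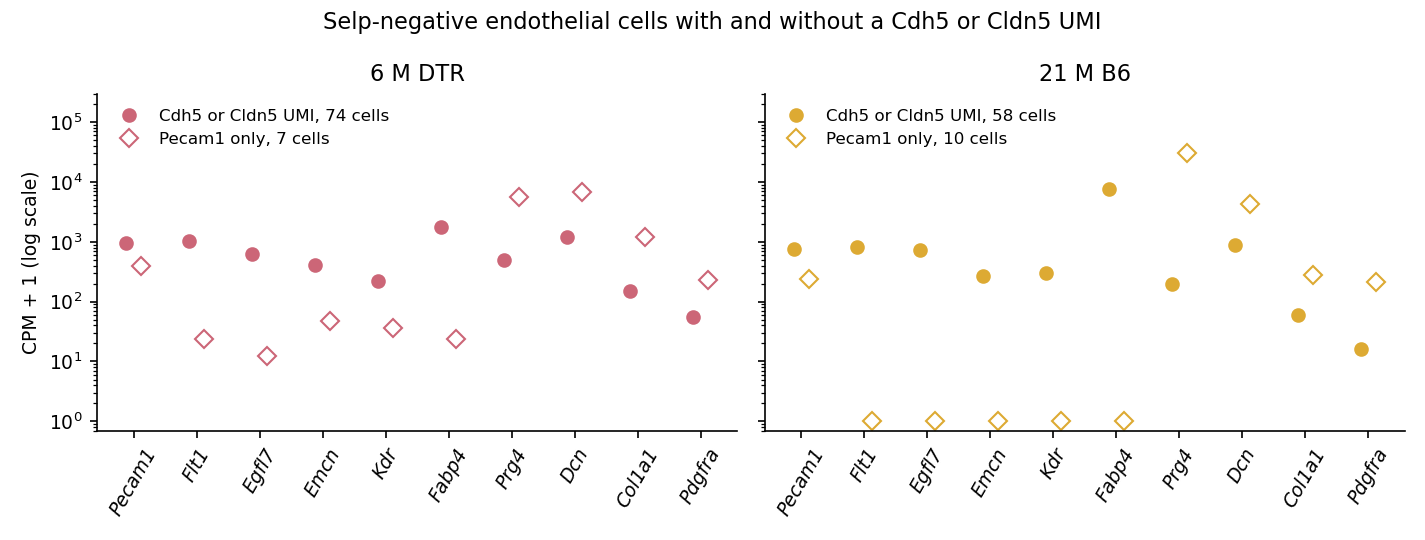
CPM plus 1 on a log axis for 6 endothelial and 4 stromal genes, in members with a Cdh5 or Cldn5 UMI (filled circles) and members admitted on Pecam1 alone (open diamonds), in DTR (left) and B6 (right). Prg4 and Dcn stand highest in the Pecam1-only cells, and 5 endothelial genes of B6 sit at 0 CPM in them.

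Message of other cell types was present in members. The rule itself limited 4 of the tenocyte genes, 3 of the mural and the C1q genes of the myeloid list, so the low sums of these lists are partly its doing. The summed level of 10 epitenon and fibroblast genes was 3811, 3677 and 3054 CPM in WT, DTR and B6, against 34591, 25509 and 16170 CPM in non-endothelial cells, and Dcn was the most abundant of them in all 3. The tenocyte list gave 436, 414 and 235 CPM with Kera at 0 in each library, compared with 20688, 11736.5 and 5259 CPM outside. Ptprc, the pan-leukocyte gene, was found in 0, 3 and 1 members, and the myeloid list summed to 95.4, 106 and 57.3 CPM. Of 10 mural genes, 8, 7 and 8 were detected, with sums of 141, 176 and 273 CPM, and the pericyte gene Rgs5 was found in 7.62%, 9.88% and 33.8% of members. Platelet genes summed to 9.66, 21.1 and 24.0 CPM. The 5 erythroid genes reached 5762 CPM in DTR, of which 95.01% came from 1 cell, and 56.7 and 30.6 CPM in the other libraries. Their part in the differences below was not tested, except where values without the cells concerned are given.

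Genes of the vessel wall were among those that set these cells apart from the rest of the tendon. There were 227 genes with at least 10 times the CPM of non-endothelial cells in each library, and the first of them by mean level were Fabp4, the lymphatic chemokine Ccl21a, Cldn5, the decoy receptor Flt1, Pecam1, Ctla2a, Cdh5, Cd200, the matrix factor Egfl7 and the phosphatase Ptprb. Flt1 stood at 1239, 893 and 588 CPM in members against 14.5, 19.0 and 37.3 CPM outside. Egfl7 stood at 645, 548 and 518 CPM against 5.70, 6.23 and 17.0. The rule had selected for genes that accompany Pecam1, Cdh5 and Cldn5, so these levels are a description. The non-endothelial cells were not free of endothelial message, since they included cells with 4 or more marker UMIs that failed another limit. The 23 pan-endothelial genes summed to 343, 453 and 798 CPM in them. The part of those cells in the levels outside was not tested. Ccl21a shares most of its sequence with Ccl21b and Ccl21c, and its count cannot be assigned to 1 of these genes with certainty.

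Fabp4, Kdr, Prox1 and Gja5 divided the members into unequal fractions. Fabp4 was the commonest. It was present in 80 of 105 members of WT, 46 of 81 of DTR and 52 of 68 of B6, and positive cells held a median of 27, 10.5 and 59 Fabp4 UMIs. With 2000 UMIs drawn from each cell, which puts all cells at 1 depth and leaves out 1 shallower member of WT (104 remain), Fabp4 was found in 69.2% of members in WT (59.4 to 77.9), 49.4% in DTR (38.1 to 60.7) and 75.0% in B6 (63.0 to 84.7). In tenocytes, which should lack the gene, the thinned share was 1.14%, 0.534% and 2.101%. In mural cells it was 16.0%, 14.8% and 6.73%. Among members the DTR share was the lowest of the 3, and its interval met that of WT. Among junction-positive members the shares were 69.2%, 54.1% (42.1 to 65.7) and 87.9% (76.7 to 95.01).

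Kdr reached fewer cells after thinning, and the intervals of the 3 libraries overlapped. The thinned share was 32.7% in WT (23.8 to 42.6), 39.5% in DTR (28.8 to 51.0) and 35.3% in B6 (24.1 to 47.8). Without thinning it was 61.9%, 66.7% and 67.6%, because a Kdr-positive cell held a median of only 2 to 2.5 UMIs. The level was 238, 196 and 216 CPM over all members and 238, 218 and 306 CPM over junction-positive members. The B6 to WT ratio in the latter was 1.28 (1.04 to 1.59).

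Prox1 marked a small fraction in every library. It was counted in 11 members of WT, 11 of DTR and 6 of B6, and the thinned shares were 8.65% (4.03 to 15.8), 11.1% (5.21 to 20.05) and 4.41% (0.919 to 12.4). Tenocytes gave 0.236%, 0.229% and 0.210%. The order of the 3 libraries lies within these intervals. Gja5 was rarer still, with 11, 4 and 3 members and a median of 1 UMI in those, and thinned shares of 3.85% (1.06 to 9.56), 1.23% (0.0313 to 6.69) and 1.47% (0.0372 to 7.92). No thinned tenocyte held Gja5 (0 of 5094, 2620 and 952 cells), which allows shares up to 0.0589%, 0.115% and 0.315% at 3 counts of the total. The share intervals of both genes overlapped across libraries, and a difference was not tested. As a level, Prox1 was at 107, 101 and 49.3 CPM over all members, at least 2-fold lower in B6 than in WT. It was at 67.9 CPM in junction-positive members of B6, where it was not past 2-fold.

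**Figure D2:**
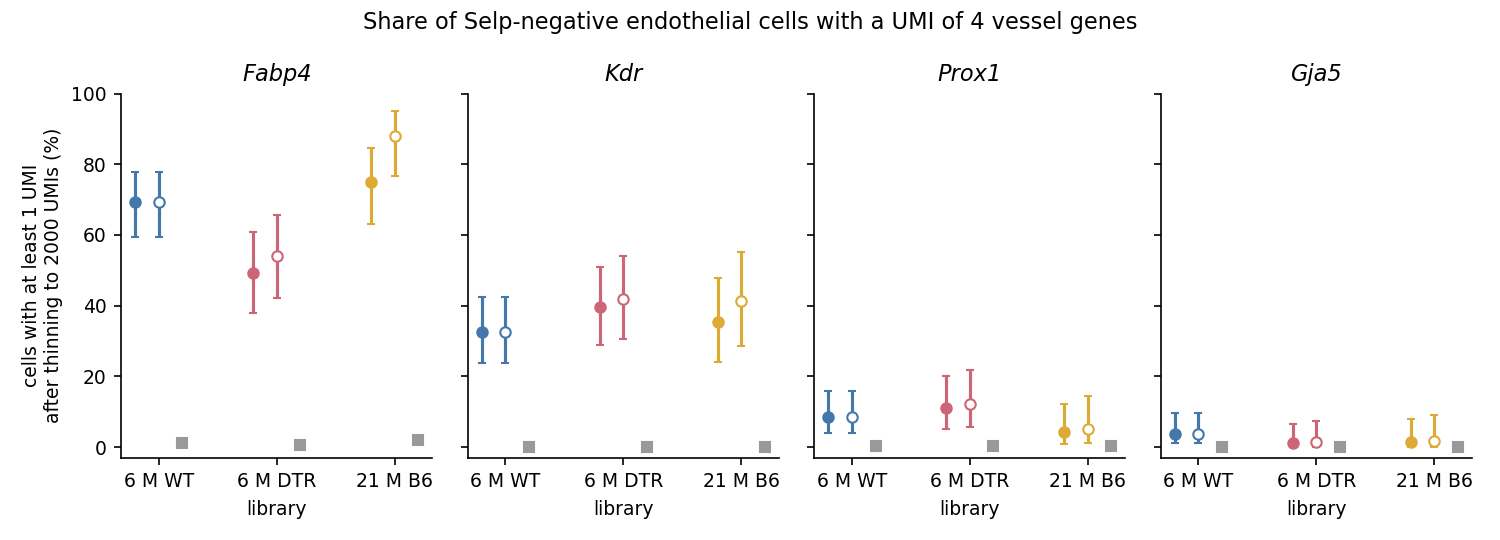
Percent of cells with at least 1 UMI of Fabp4, Kdr, Prox1 or Gja5 after thinning to 2000 UMIs, for all members (filled circles), junction-positive members (open circles) and tenocytes (grey squares) of each library, with 95% Clopper-Pearson intervals. Fabp4 is lowest in DTR, at 49.4% of all members, and the intervals of the other 3 genes overlap across libraries.

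Taken over all libraries, 126 of 254 members had both Fabp4 and Kdr, 18 had Kdr with none of the other 3 genes, and 34 had none of the 4. Of the 34 cells with none, 14 were admitted on Pecam1 alone. Kdr without Fabp4, Prox1 or Gja5 was found in 5 members of WT, 11 of DTR and 2 of B6. Fabp4 and Cd36 went together, since 131 of the 133 members with Cd36 also had Fabp4.

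Most Prox1-positive cells also carried other lymphatic genes. Of 28 such members, 25 also had Mmrn1, a secreted protein of lymphatic endothelium, 25 had Flt4, the receptor for the lymphatic growth factor Vegfc, and 23 had the hyaluronan receptor Lyve1. Only 4 had Fabp4, 3 had Cd36 and 2 had Vwf, which blood endothelium stores and secretes. Ccl21a, which draws dendritic cells to lymphatics, was at 13631 CPM in these 28 cells and at 10.2 CPM in the other 226 members. Lyve1 was at 1937 against 7.65 CPM, Mmrn1 at 1288 against 3.57, Reln at 434 against 8.16 and Flt4 at 489 against 19.4. The reverse held for Fabp4, at 249 against 4223 CPM, for Flt1, at 97.2 against 1056, and for Vwf, at 15.2 against 159. Lymphatic and blood genes thus separated in opposite directions within the members. Kdr did not separate them in this way, at 285 CPM in Prox1-positive and 206 CPM in the other cells. Ccl21a was at 10152, 18097 and 13220.1 CPM in the Prox1-positive cells of WT, DTR and B6, and at 0, 33.0 and 0 CPM in the remainder. In B6 1 cell held 1004 of the 1354 Ccl21a UMIs, and without that cell the level was 4432 CPM. Of the 6 Prox1-positive cells of B6, 1 was a Pecam1-only cell with a single Prox1 UMI. Among the other 5, Ccl21a was at 18852 CPM, or 7235 CPM without the cell that held most, Lyve1 was found in 3 and Mmrn1 in 4. In WT Lyve1 and Mmrn1 were found in 9 and 10 of 11 cells, and in DTR both were in 11 of 11. A cell of WT and a cell of B6 with a single Prox1 UMI had neither Lyve1 nor Mmrn1 and held 31 and 49 Fabp4 UMIs.

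**Figure D3:**
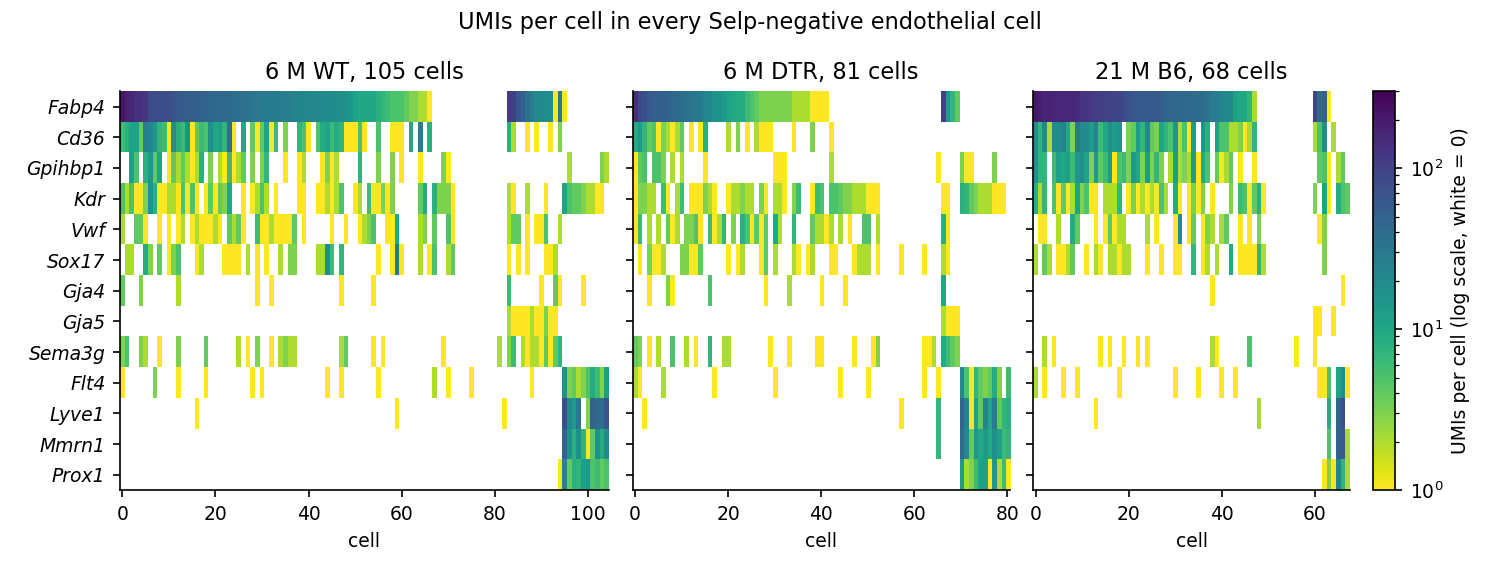
UMIs per cell on a log colour scale, white for 0, for 13 vessel genes (rows) in every member (columns) of the 3 libraries, ordered with Prox1-positive cells at the right, then Gja5-positive cells, then the others by Fabp4. Lyve1, Mmrn1 and Flt4 fill most columns of the Prox1-positive cells, where Fabp4 and Cd36 are mostly 0.

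Of the 18 Gja5-positive members, 1 was a Pecam1-only cell of B6, which also held a Prox1 UMI and had 30598 UMIs in all, against 9465 and 5941 in the other two of that library. The values given next are therefore those of the 17 junction-positive cells with Gja5, 11 in WT, 4 in DTR and 2 in B6, against the other 220 junction-positive members. All 17 had Fabp4. The arterial genes Sema3g and Gja4 were higher in them, while Efnb2 had an interval that includes 1 and Sox17 was not higher. Sema3g, a guidance factor of arterial endothelium, was at 353 against 61.8 CPM, a ratio of 5.71 (3.996 to 8.04). By library it was at 305 against 74.0 CPM in WT and 577 against 71.7 CPM in DTR, while the value of B6, 64.9 against 33.0 CPM, rests on 1 UMI. Gja4 was at 151 against 17.4 CPM, a ratio of 8.71 (4.77 to 15.6), but it was found in only 4 of the 17 cells, none of them in B6, and 10 of its 21 UMIs lay in 1 cell of DTR. Without that cell the ratio was 5.52 (2.51 to 11.2). The elastic fibre gene Fbln5 was at 209 against 59.1 CPM. Efnb2, the arterial ephrin ligand, had a ratio of 1.20 (0.790 to 1.76), whose interval includes 1. Cldn5 was at 2837 against 1054 CPM, with 3773 against 1264 CPM in WT, 1443 against 1028 CPM in DTR and 1103 against 783 CPM in B6. Among capillary genes, Gpihbp1 was lower in the same cells, at 28.8 against 269 CPM, and so was the water channel Aqp1, at 36.0 against 774 CPM. Kdr was at 79.2 against 263 CPM and Rgcc at 122 against 430 CPM. Fabp4 was not lower, at 5228 against 4138 CPM. Rgcc turned with the Pecam1-only cell, which held 142 of its UMIs, and was at 938 against 680 CPM over all members. Plvap, which forms the diaphragms of fenestrae, was at 7.20 against 239 CPM. The arterial factor Sox17 did not follow Gja5, at 72.0 CPM in positive and 136 CPM in negative cells. Vcam1 was at 1066 against 84.6 CPM, and all 148 UMIs of the former lay in 1 cell of DTR. Since 1 or 2 UMIs decide whether most of these cells are Gja5-positive, cells that express the gene may be among the negative ones.

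The DTR library was compared with WT for the effect of depleting Scx-lineage cells on the tendon. Capillary fatty acid genes were lower in DTR and most endothelial genes were close to the WT level. Over all members, 3436 genes had at least 50 CPM in 1 of the 2 libraries. Of these, 64 (1.86%) were at least 2-fold higher and 91 (2.65%) at least 2-fold lower in DTR with a counting interval that did not include 1. In junction-positive members these counts were 32 (0.939%) and 94 (2.76%) of 3408 genes. Of the first 64 genes 24 were also higher in junction-positive members, and of the 91 lower genes 69 were also lower.

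Fabp4 was at 3946 CPM in WT and 1562 CPM in DTR, a ratio of 0.396 (0.369 to 0.424), and at 1774 CPM in junction-positive members, a ratio of 0.450 (0.420 to 0.482). Cd36 was at 538 and 108 CPM, or 123 CPM in junction-positive members, a ratio of 0.229 (0.178 to 0.293), and the share of junction-positive members with Cd36 was 57.1% in WT and 32.4% in DTR. Gpihbp1 was at 179 CPM in WT and 59.1 CPM in DTR, with a junction-positive ratio of 0.377 (0.261 to 0.534). For all 3 genes the DTR level was the lowest of the libraries. Lipoprotein lipase (Lpl) and Fabp5 were at 58.0 and 84.5 CPM in WT and at 28.2 and 40.8 CPM in DTR, and their junction-positive ratios were 0.553 (0.311 to 0.9499) and 0.531 (0.330 to 0.834), short of 2-fold. None of the 11 measured genes of the fatty acid uptake list was higher in DTR, 5 of 7 ranked genes were at least 2-fold lower over all members and 3 of 7 in junction-positive members, and the list's median log2 ratio was -1.34, or -1.15 in junction-positive members, beside medians of -0.07 and -0.08 for all genes. Pparg, the nuclear receptor that regulates several of these genes, was at 22.9 and 7.04 CPM, or 8.01 CPM in junction-positive members.

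Most of the remaining capillary genes differed by less. In junction-positive members Aqp1 stood at 616 CPM in WT and 357 CPM in DTR (420 CPM over all members), Rgcc, a regulator of the cell cycle, at 338 and 192 CPM (over all members it was at 397 CPM in DTR, with 44.0% from 1 cell, and so above WT), and the homeobox gene Meox2 at 104 and 60.9 CPM (60.5 CPM over all members). Kdr and the adhesion gene Cd300lg had ratios of 0.917 (0.731 to 1.15) and 0.970 (0.693 to 1.35). The metalloproteinase inhibitor Timp4 was at 33.8 CPM in WT and 3.21 CPM in DTR, which is 2 UMIs. Of the 9 ranked genes of the whole capillary list, 3 were at least 2-fold lower and none at least 2-fold higher in both sets. The 3 were again Fabp4, Cd36 and Gpihbp1, which the fatty acid uptake list also holds. The capillary list had a median log2 ratio of -0.68 over all members and -0.78 in junction-positive ones. The 23 pan-endothelial genes had a median of -0.23 over all members and -0.06 in junction-positive ones, with none past 2-fold in either direction. Tie1 was at 217 and 208 CPM, Egfl7 at 645 and 622 CPM, and Flt1 at 1239 and 1013 CPM.

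The difference in Fabp4, Cd36 and Gpihbp1 kept its direction in each sex. Among junction-positive members called female, the DTR to WT ratios were 0.523 (0.464 to 0.589) for Fabp4, 0.363 (0.240 to 0.533) for Cd36 and 0.534 (0.306 to 0.890) for Gpihbp1, over 22 and 55 cells. Among those called male they were 0.432 (0.388 to 0.480), 0.150 (0.0977 to 0.223) and 0.329 (0.168 to 0.620), over 34 and 23 cells. Leaving out members with a Prox1, Lyve1 or Mmrn1 UMI gave 0.447 for Fabp4 in junction-positive members. The digestion time also differed between these libraries, and its part was not tested.

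**Figure D4:**
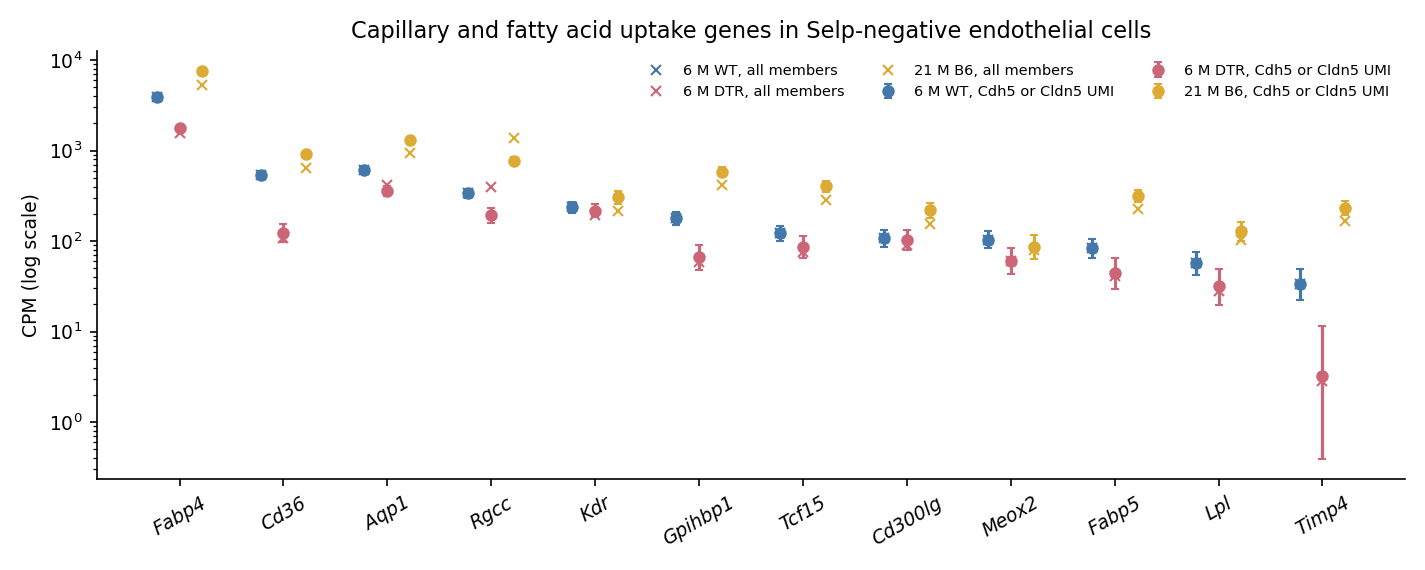
CPM on a log axis of 12 capillary and fatty acid uptake genes in WT, DTR and B6, for junction-positive members (circles, with 95% Poisson intervals of the counts) and all members (crosses). Fabp4, Cd36 and Gpihbp1 are lowest in DTR, where Cd36 stands at 123 CPM in junction-positive members against 538 CPM in WT.

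Some genes were higher in DTR. Placental growth factor (Pgf), a ligand of Flt1, was at 55.5 CPM in WT and at 159 CPM in junction-positive members of DTR, a ratio of 2.86 (1.99 to 4.15), or 2.03 without the cell holding most of its UMIs in each library. Ccl21a was 1.80 times higher over all members (1.67 to 1.93) and 2.05 times higher in junction-positive ones (1.91 to 2.20), where it was past 2-fold, and was found in 7.62% and 16.2% of junction-positive members. Hes1, a Notch target, was at 151 and 311 CPM with a junction-positive ratio of 2.06 (1.64 to 2.60), and just under 2-fold over all members, at 1.997 (1.59 to 2.51). Fos and Klf2, which respond to stimulation and to flow, were at 1025 and 377 CPM in WT and at 2039 and 769 CPM over all members of DTR, and their junction-positive ratios were 1.69 (1.54 to 1.85) and 1.74 (1.502 to 2.03). Vcam1, which binds leukocyte integrins, was at 84.5 CPM in WT and 324 CPM in DTR, and 64.3% of the latter came from 1 cell.

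Several of the genes ranked highest rested on 1 cell or on the Pecam1-only cells. The haemoglobin genes Hba-a1 and Hba-a2 were at 2190 and 1235 CPM in DTR, with 97.7% and 96.7% from 1 cell. Ramp3, a partner of the adrenomedullin receptor, was at 13.3 CPM in WT and 56.3 CPM in DTR, but at 4.81 CPM in junction-positive members. Lrrc15 was at 0 CPM in WT and at 53.5 CPM over all members, and 3.21 CPM was left in junction-positive members. Among genes more abundant outside the endothelium, Ccn2 was at 24.1 and 400 CPM, and at 112 CPM in junction-positive members, Ctsk at 39.8, 328 and 62.5 CPM and Aspn at 116, 698 and 298 CPM.

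The genes that ranked lowest in DTR beside Cd36 and Fabp4 included Cxcl5, Postn, Cdh11, C2, Cldn1, Tenm2, Cpe and Cdc42ep2. Cdh11, an adhesion molecule of mesenchymal cells, was at 83.3 CPM in WT and 9.86 CPM in DTR, or 8.01 CPM in junction-positive members. Cdc42ep2, an effector of the small GTPase Cdc42, was at 112 and 32.4 CPM, or 36.9 CPM in junction-positive members. Cxcl5 was at 68.8 and 0 CPM, but 93.0% of its WT UMIs lay in 1 cell. The monocyte chemokines Ccl2 and Ccl7 were at 1326 and 658 CPM in WT and 331 and 85.9 CPM in DTR (375 and 94.6 CPM in junction-positive members), and 1 cell held 40.9% and 53.4% of their WT UMIs. Ptgs2, the inducible cyclooxygenase, was at 188 and 22.5 CPM, or 8.01 CPM in junction-positive members. Of the NF-kappa B list, 1 of 12 genes was higher in DTR and none was past 2-fold in both sets, and the median log2 ratio was -0.40 over all members and -0.32 in junction-positive ones. None of the 13 MHC class I genes was higher in either set, and their medians were -0.43 and -0.31.

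The B6 library was compared with WT for the difference between old and young tendon, and the comparison shares the WT library with the previous one. In junction-positive members, most genes of the capillary, heat shock and interferon lists were higher in B6. Most genes of the NF-kappa B and basement membrane lists were lower. Over all members, 175 of 3479 ranked genes (5.03%) were at least 2-fold higher and 441 (12.7%) at least 2-fold lower, and in junction-positive members 113 of 3441 (3.28%) were higher and 365 (10.6%) lower. Of the 175 and 441 genes, 57 and 264 were also past 2-fold in junction-positive members. All genes had a median log2 ratio of -0.14, or -0.16 in junction-positive members.

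Fabp4 was at 5303 CPM over all members of B6 and 7506 CPM in junction-positive members, against 3946 CPM in WT, a junction-positive ratio of 1.90 (1.82 to 1.99). Gpihbp1 was at 179 CPM in WT and 585 CPM in junction-positive members of B6, a ratio of 3.27 (2.68 to 4.01), and it was found in 39.0% and 81.0% of cells. Tcf15, which with Meox2 drives fatty acid uptake in capillaries, was at 122 and 404 CPM, a ratio of 3.31 (2.60 to 4.24), while Meox2 itself had a ratio of 0.835 (0.571 to 1.21). Rgcc was at 338 and 771 CPM, Aqp1 at 616 and 1316 CPM, Timp4 at 33.8 and 234 CPM, and Cd36 at 538 and 917 CPM. In the capillary list 6 of 10 ranked genes were at least 2-fold higher, none was lower, and 11 of 12 were higher by any amount, with a median log2 ratio of 1.14. Over all members 4 were at least 2-fold higher, and the median was 0.92. Among cells called female the medians were 0.11 over all members and 0.86 in junction-positive ones. These values depended on cells with a high mitochondrial share. With a limit of 5% instead of 10%, 12 junction-positive members of B6 were left, the Fabp4 ratio was 0.391 (0.347 to 0.439), the Gpihbp1 ratio 1.48 (1.06 to 2.05) and the capillary median -0.17. Fabp4 was thus below WT in those cells, and the part of the mitochondrial share in the result was not tested beyond this.

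Heat shock genes were higher in B6, in members and outside them. The summed level of the 14 list genes was 6511, 6383 and 13899.7 CPM in members of WT, DTR and B6, and 4578, 4415 and 10757 CPM in non-endothelial cells. The inducible chaperones Hspa1a and Hspa1b were at 171 and 136 CPM in WT, 153 and 191 CPM in DTR, and 1286 and 1026 CPM in junction-positive members of B6. Their ratios to WT were 7.50 (6.25 to 9.05) and 7.52 (6.13 to 9.29). Hsp90aa1 had a ratio of 2.65 (2.39 to 2.93) and the constitutive Hspa8 one of 1.80 (1.67 to 1.94). Over all members 14 of 14 list genes were higher, and 13 of 14 in junction-positive members, with 6 at least 2-fold higher and a median of 0.88, against 7 and a median of 1.03 over all members. The junction-positive median was 1.31 at the mitochondrial limit of 5%.

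NF-kappa B genes were lower. Of 12 NF-kappa B genes none was higher, 5 were at least 2-fold lower in junction-positive members (Nfkb1, Rel, Tnfaip3, Birc3 and Cxcl1) and the median was -0.84. Over all members 4 were, with a median of -0.87. The list's summed level was 7260 CPM in members of WT and 3574 CPM in B6, and 8342 and 9141 CPM in non-endothelial cells. Tnfaip3, an inhibitor of the pathway, was at 299 CPM in WT and 138 CPM in B6. Cxcl1, which attracts neutrophils, was at 2241 and 547 CPM, a ratio of 0.244 (0.215 to 0.276), Ccl2 at 1326 and 145 CPM, and Ccl7 at 658 and 33.9 CPM. A large part of the WT level of Ccl2 and Ccl7 came from 1 cell, as given above for DTR. Over all members, the top cell held 11.9% of the NF-kappa B list's UMIs in WT and 7.42% in B6. For the list of chemokines and their receptors it held 20.9% and 30.6%. Icam1 was at 1175 and 592 CPM. The list of chemokines and their receptors was mixed. In junction-positive members 5 of its 9 ranked genes were at least 2-fold lower (Cxcl1, Ccl2, Ccl7, Ackr3 and Cxcr4) and 1, Cxcl10, was at least 2-fold higher, while 5 of all 13 were higher by any amount and the median was -1.04. Over all members 7 were higher and the median was 0.020. Cxcl12, a chemokine that capillary and arterial endothelium makes, was at 896 and 1541 CPM. Cxcl10, an interferon-induced chemokine, was at 14.5 and 107 CPM, and Vcam1 at 84.5 and 7.54 CPM.

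Most interferon response genes stood higher in B6. In junction-positive members 7 of 17 ranked list genes were at least 2-fold higher (Ifit1, Ifit2, Ifit3, Isg15, Irf1, Irf7 and Rsad2) and none at least 2-fold lower. Of all 20 list genes 14 were higher and 6 lower by any amount, and the median was 0.60. Over all members 4 were at least 2-fold higher, 13 were higher and 7 lower by any amount, and the median was 0.18. Ifit1 was at 65.2 CPM in WT, 54.5 CPM in DTR and 398 CPM in B6, and was found in 17.1%, 9.46% and 32.8% of junction-positive members. Isg15 was at 298, 290 and 707 CPM. The list's summed level in non-endothelial cells was 590, 434 and 981 CPM, and so was also highest in B6.

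Basement membrane genes were lower, and by more over all members than in junction-positive ones. The summed level of the list was 3995 CPM in members of WT and 2326 CPM in B6, and 6072 and 2345 CPM in non-endothelial cells. None of 13 was higher over all members and 7 were at least 2-fold lower, with a median of -1.04. In junction-positive members 4 were (Col18a1, Lamb2, Lamc1 and Nid1), and the median was -0.69. At the mitochondrial limit of 5% this median was -0.25, beside -0.08 for all genes, in the 12 cells of B6 that were left. Stromal genes were lower in junction-positive members as well. At least 2-fold lower were 5 of 6 ranked epitenon and fibroblast genes (Col1a1, Col1a2, Col3a1, Dcn and Lum) and 3 of 4 ranked tenocyte genes. Of all 10 epitenon and fibroblast genes 4 were higher by any amount. The part of stromal message in the basement membrane result was not tested. Col18a1, the source of endostatin, was at 257 and 99.9 CPM, a ratio of 0.389 (0.282 to 0.527), and the collagen IV chains Col4a1 and Col4a2 had ratios of 0.590 (0.497 to 0.698) and 0.695 (0.573 to 0.839). The pan-endothelial list had 5 genes at least 2-fold lower over all members and 1, Rasip1, in junction-positive ones, where its median was -0.24, or -0.53 at the limit of 5%. Rasip1, which shapes the vessel lumen, was at 575 and 266 CPM.

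**Figure D5:**
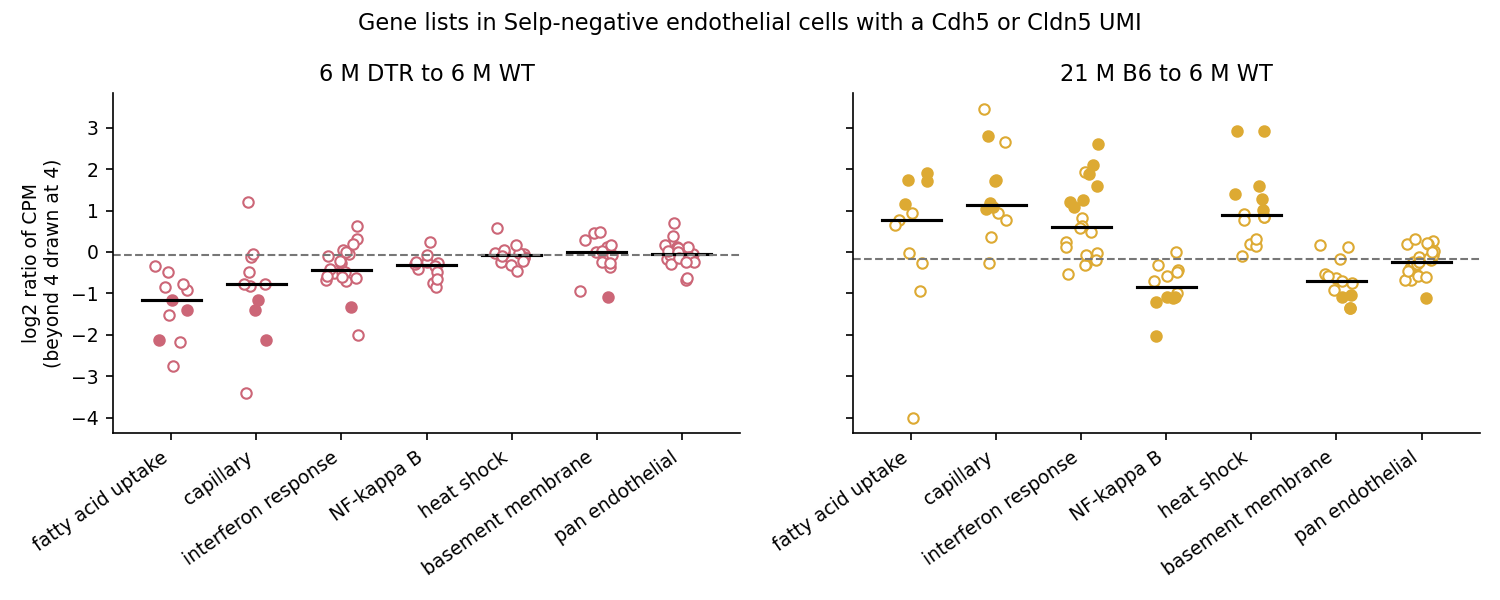
Log2 ratio of CPM in junction-positive members, DTR to WT (left) and B6 to WT (right), for the genes of 7 lists with at least 5 CPM in 1 library. Filled points are past 2-fold with an interval that does not include 1, black bars are list medians and dashed lines are the medians of all genes. The fatty acid uptake median is -1.15 at left, and the heat shock median 0.88 and NF-kappa B median -0.84 at right.

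Of the arterial list, 12 of 15 genes were lower in B6 in both sets, 2 of the ranked ones were at least 2-fold lower and none higher, and the median was -0.72 over all members and -0.66 in junction-positive ones. Sema3g was at 97.8 and 33.9 CPM, a junction-positive ratio of 0.347 (0.196 to 0.584), and the Notch ligand Dll4 at 204 and 92.4 CPM, a ratio of 0.453 (0.322 to 0.626). Gja4 was at 31.4 and 3.77 CPM, which is 2 UMIs. The Notch list stood near the median of all genes in junction-positive members, at -0.19, with Hes1 at least 2-fold higher, at 151 and 381 CPM, and Dll4 at least 2-fold lower. Its median over all members was -0.46. Of the lymphatic list, 4 of 8 ranked genes were at least 2-fold lower over all members (Prox1, Lyve1, Reln and Nrp2), and none in junction-positive members.

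The genes ranked highest in B6 over all members were largely those of the Pecam1-only cells. Prg4 was at 226 CPM in WT and 9140 CPM in B6, a ratio of 40.5 (35.01 to 47.1), and with the junction-positive cells alone it was at 194 CPM, a ratio of 0.860 (0.670 to 1.10). Fibronectin (Fn1) had a ratio of 8.14 over all members and 0.424 (0.342 to 0.524) in junction-positive ones. Pla1a was at 64.0 CPM over all members and at 0 CPM in junction-positive ones. Htra4, Gpr1 and Des were at 95.9, 56.0 and 65.3 CPM, and at 5.66, 3.77 and 3.77 CPM without these cells. Among genes more abundant outside the endothelium, Pcolce2, Axl, Cd248 and Krtdap had ratios of 11.1, 11.04, 16.8 and 25.4 over all members, and of 1.14, 1.48, 1.95 and 4.17 in junction-positive ones. Of the UMIs of the chaperone Cryab, 81.6% came from 1 cell.

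The genes ranked lowest in B6 held in both sets of cells. Adamts9, a secreted protease, was at 407 CPM in WT and at 111 CPM in junction-positive members of B6, a ratio of 0.273 (0.204 to 0.361). Stc1, a secreted glycoprotein, was at 295 and 39.6 CPM, Cd24a at 182 and 33.9 CPM, the potassium channel Kcnj2 at 77.3 and 9.43 CPM, and the cystine transporter Slc7a11 at 146 and 1.89 CPM. Tenm2 and Cldn1 were at 59.2 and 64.0 CPM in WT and at 0 and 1.89 CPM in B6. In WT the cell with most Stc1 held 10.2% of its UMIs, and 32.2% of the neurotensin (Nts) UMIs lay in 1 cell.

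The members were last set beside the 49 endothelial cells with 2 or more selectin UMIs, a contrast that the rule itself defines and that is given without a test. In B6 it rests on 3 cells. Of 2844 genes, 40 (1.41%) were at least 2-fold higher and 19 (0.668%) at least 2-fold lower in members in all 3 libraries. Leaving aside Selp and Sele, the lower genes included Plvap, at 144 and 1120 CPM in WT and 222 and 992 CPM in DTR, Csf3, at 36.2 and 1374 CPM and 53.5 and 450 CPM, and Icam1, at 1175 and 3631 CPM and 890 and 2312 CPM. The leptin receptor Lepr, the cytokine receptor subunit Il6st, the insulin receptor Insr, Nt5e, Mctp1 and Cmah were lower in members as well. The higher genes were partly lymphatic, with Ccl21a at 0 CPM in the selectin-positive cells of every library and Mmrn1 at 8.18, 3.72 and 0 CPM, and partly stromal, with Prg4, Aspn, Col1a1, Col3a1, Igfbp5 and Gsn among the first 15. In WT and DTR alone, 89 of 3154 genes (2.82%) were higher and 63 (2.0%) lower in members. Without the Pecam1-only cells 22 genes were higher and 15 lower. Cldn5 was at 1522 CPM in members and 65.4 CPM in selectin-positive cells of WT, and at 925 and 81.8 CPM in DTR, but at 560 and 1716 CPM in B6, in the opposite order. In WT and DTR Pecam1 was at 1002 and 916 CPM and at 889 and 1093 CPM. Cldn5 took part in choosing the cells of both sides. Fabp4 was present on both sides, at 3946 and 4207 CPM in WT and at 1562 and 4163 CPM in DTR.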

How the data were processed

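Counts were analysed as the authors deposited them, as UMI counts per gene and barcode from 10x Chromium 3' libraries made with Cell Ranger (2.1.1 in the submitters' processing notes, 6.0.1 in the file headers). No genome build or annotation is given in the sources used here. The members, gene lists and rules were chosen with earlier results of these data known. UMIs were summed over members (828286, 710185 and 750520 in the WT, DTR and B6 libraries) and scaled to CPM, and ratios have exact conditional binomial 95% intervals. Genes that reached 50 CPM on either side of a comparison were ranked, and list medians took genes from 5 CPM upwards. Named genes were those of the rule and lists, the 10 highest and 10 lowest by the interval bound nearest to 1, 5 each of genes more abundant outside the endothelium, the first 15 each way beside selectin-positive cells and the 15 most abundant. Some genes that the rule names are not reported here. Where a symbol had several gene identifiers, the one with most UMIs was used. Scrublet in scanpy 1.11.5 marked 2, 7 and 1 doublets, under 0.5% of cells, so it did not work here and doublets may remain. The ratio code was tested on simulated data. Python 3.11.15, SciPy 1.17.1 and edgeR 4.0.16 (for TMM factors alone, as an alternative) were used.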

Additional observations from a re-analysis of the deposited data

Results flagged for a closer look

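Barcodes with more than 5000 genes, which the quality filter left out, also held cells that met the remainder of the rule. They were 9 of 732 such barcodes in the WT library (1.23%), 5 of 659 in DTR (0.759%) and 5 of 357 in B6 (1.40%), with 95% Clopper-Pearson intervals of 0.564 to 2.32%, 0.247 to 1.76% and 0.456 to 3.24%. They are given because they lie outside the cells analysed above, and their number was not tested. A Fabp4 UMI was present in 3, 1 and 2 of them. The second result was the level of Fabp4 in members over selectin-positive endothelial cells, which went in opposite directions in DTR (0.375) and B6 (23.6). The B6 value rests on 3 selectin-positive cells, and the difference between libraries was not tested.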

How the results depend on the processing

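Of the alternatives' values for shares, counts of genes and list medians, 485 stayed within the error or within 1.5 times of the reported value. The other 85 did not. Of the values for the Fabp4, Cd36 and Gpihbp1 ratios and the medians of all genes, 119 stayed and 48 moved. At the mitochondrial limit of 5% the B6 to WT ratios of Gpihbp1 over all members and of Fabp4 in junction-positive members fell below 1. Over all named genes, 22 ratios changed direction, and more lost their place past 2-fold. Of 29 such genes in DTR and 30 in B6, 14 and 18 stayed with at least 6 marker UMIs, 17 and 23 without each gene's top cell, 18 and 20 without an upper limit on genes, 20 and 25 at the mitochondrial limit of 5% and 24 and 21 in junction-positive members. The Fabp4, Cd36 and Gpihbp1 ratios of DTR to WT were below 1 under every alternative run. No paired analysis was possible because each group has 1 library and no replicate numbers. The alternatives that ask for a Cdh5 or Cldn5 UMI alone or together with another limit, leave out the top cell or average single cells were chosen after seeing the data. The cause of the changes below was not tested.

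With a mitochondrial limit of 5%, 68, 54 and 18 members were left (WT, DTR, B6), or 0.905%, 0.96% and 0.776% of filtered cells. Of these members 0, 4 and 6 were Pecam1-only cells. In B6 the share with Fabp4 was 38.9%, with Kdr 16.7% and with Gja5 0%, and in WT with Gja5 0%. The genes at least 2-fold higher numbered 114 in DTR and 318 in B6, and those lower 685 in B6. The B6 medians were -1.28 for fatty acid uptake, -1.09 for capillary and -1.26 for pan-endothelial genes, and the Gpihbp1 ratio was 0.823. At the limit of 10% these medians were 0.63, 0.92 and -0.70 over all members. In DTR Cpe had a ratio of 1.07 (0.261 as reported) and Ramp3 one of 0.535 (4.24 as reported).

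Without an upper limit on genes, 34 genes were higher in DTR and 99 in B6, the DTR medians were 0.40 for basement membrane and -0.11 for pan-endothelial genes, and the ratios were 4.23 for Ccl11 and 0.838 for Ccn2 in DTR and 0.985 for Krtdap and 0.884 for Prg4 in B6. With at least 6 marker UMIs, the DTR median of NF-kappa B genes was -0.23, 25 genes were higher than in selectin-positive cells, and the ratios were 1.21 for Col6a3 in B6 and 4.24 for Cpe and 0.331 for Ramp3 in DTR. With a tenocyte sum under 3 the B6 basement membrane median was -1.14.

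Junction-positive members had 32 genes higher in DTR and 113 in B6, 22 higher than in selectin-positive cells, pan-endothelial medians of -0.061 and -0.24, a Fabp4 share of 87.9% in B6, and ratios of 0.424 for Fn1 and 0.860 for Prg4 in B6 and 0.362 for Ramp3 in DTR. Leaving out cells with leukocyte or platelet genes as well gave 42 genes in DTR, 113 in B6, 22 beside selectin-positive cells, medians of -0.067 and -0.24, 87.9%, and ratios of 0.424, 0.860 and 0.388. Leaving out Prox1, Lyve1 or Mmrn1 cells from the junction-positive members gave 15 genes beside selectin-positive cells, DTR medians of -0.23 for NF-kappa B, -0.23 for heat shock and 0.041 for pan-endothelial genes, a B6 pan-endothelial median of -0.33, and ratios of 0.446 for Fn1, 0.876 for Prg4 and 0.375 for Ramp3. With the limit of 5% the junction-positive medians were -0.25 for basement membrane and -0.17 for capillary genes in B6 and -0.11 for pan-endothelial genes in DTR, the B6 Fabp4 share was 58.3%, and the Gja5 shares of WT and B6 were 0%.

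Among cells called female, 157 genes were higher and 288 lower in DTR and 276 and 760 in B6, and 14 were higher than in selectin-positive cells. The DTR medians were 0.27 for basement membrane and 0.14 for pan-endothelial genes, also in junction-positive members, and the B6 medians 0.11 for capillary, -1.33 for basement membrane and -1.09 for pan-endothelial genes. The shares were 0% for Prox1 in DTR and for Gja5 in DTR and B6, and the Ramp3 ratio was 0.225. Among cells called male, 162 genes were higher and 241 lower in DTR, 23 and 6 were higher and lower than in selectin-positive cells, the DTR medians were -0.53 for basement membrane, -0.10 for NF-kappa B and -0.57 for pan-endothelial genes, the Prox1 share of B6 was 0%, and the Tnfaip6 ratio of DTR was 1.44. Junction-positive males had DTR medians of -0.52, -0.046 and -0.35 for these lists and B6 medians of -0.44 for NF-kappa B and -0.12 for pan-endothelial genes.

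Without thinning the Kdr shares were 61.9%, 66.7% and 67.6% and the Gja5 share of WT 10.5%. Thinned to a larger number of UMIs, the Kdr shares were 43.5%, 52.2% and 54.0% and the Gja5 share of DTR 0%, and with at least 2 UMIs the Gja5 share of B6 was 0%. Genes from 20 CPM upwards gave 201 higher and 259 lower in DTR and 351 and 777 in B6. Without each gene's top cell, with the 50 CPM floor applied to what was left, 34 genes were higher in DTR (43 of the 64 with the floor applied before), and the Ramp3 ratio was 0.4998.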

Other observations

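Ribosomal protein genes were slightly higher in DTR than in WT members, with 75 of 76 above the WT level, a median log2 ratio of 0.18 and none at least 2-fold higher. In B6 37 of 76 were above it over all members, and 68 of 76 in members with a Cdh5 or Cldn5 UMI, where the median was 0.12. In DTR 75 of 76 were above it in those members too. Of 12 cell cycle genes, 8, 5 and 7 were detected in WT, DTR and B6 members. Pcna was at 257, 211 and 237 CPM, and Mki67 was found in 1 member of each library. No UMI of Cdk1, Ccnb1 or Cenpf was counted in any member. Cdkn1a, an inhibitor of the cell cycle, was at 1735, 1170 and 1400.4 CPM.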
